A study of Mus musculus with 8 samples.

Results

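The genes described are 5 semaphorin ligand genes (Sema3a, Sema3c, Sema3e, Sema5a and Sema6d) and 5 receptor genes (the plexins Plxna2, Plxna4 and Plxnd1 and the neuropilins Nrp1 and Nrp2). Their peaks were chosen as the distinct intervals of the deposited RBM45 CLIP peak lists whose midpoint lay in the body of one of these genes, on its annotated strand (mm10, GENCODE M21). They numbered 677 of 387749 distinct peaks in WT CLIP replicate 1, 627 of 344700 in WT CLIP replicate 2, and 20 of the 16399 pairs in the deposited list of peaks shared by both. Ligand genes held 307 peaks in replicate 1 and 351 in replicate 2, and receptor genes 370 and 276. The 10 genes are among 20188 genes with a peak in either replicate, and each was tied to its peaks by position and not by any measured value.

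RBM45 carries RNA recognition motifs, and the series profiled the RNA it binds in mHippoE-2 cells, a transformed line of mouse hippocampal neurons. It holds 8 libraries in 4 groups of 2: Mettl3KO CLIP and Mettl3KO input from cells that lack Mettl3, the enzyme subunit that places m6A on mRNA, and WT CLIP and WT input from cells that keep it. All cells carried a lentivirus for mouse RBM45 with FLAG and HA tags, so the protein studied is the tagged one and not the one made at its own locus. CLIP libraries were made by iCLIP, in which protein and RNA are crosslinked, the protein is pulled down, here with an antibody against HA, and its RNA is sequenced, while the size-matched input libraries had no antibody. The peak lists of the WT CLIP libraries are the ones used below; the knockout and input libraries were not analysed here. No label ties the 2 replicates to separate cultures, and there is no untreated group, so the values are descriptions of these 2 lists.

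Semaphorins are guidance cues that repel or attract growing axons and migrating cells. Class 3 semaphorins are secreted, and most of them bind a neuropilin, which holds the ligand, while an A-type plexin passes the signal into the cell through its GTPase-activating domain; SEMA3E instead binds plexin D1 directly. SEMA5A and SEMA6D are anchored in the membrane. In the hippocampus, semaphorins and A-type plexins are known for sorting axons and mossy fibres into layers, and neuropilins also bind forms of VEGF.

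Nearly all peaks in these genes were intronic, and intronic sequence was readable only where an annotated transcript covers it. The sequences shown are the readable overlapping coding peaks of Plxnd1 and the readable exonic peak of the highest fold of several genes. For the latter, peaks outside coding sequence were taken only up to a width of 30 bp. They were read from GENCODE M21 transcripts of the mm10 build, 5′ to 3′ on the strand of the gene, and capitals mark GAC, the core of the m6A consensus.
Plxnd1, replicate 2, coding sequence, chr6:115957607-115957655 (minus strand): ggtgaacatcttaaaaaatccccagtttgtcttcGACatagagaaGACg
Plxnd1, replicate 1, coding sequence, chr6:115957614-115957643 (minus strand): aaaaaatccccagtttgtcttcGACataga
Plxnd1, replicate 1, coding sequence, chr6:115963969-115963998 (minus strand): gcggagctgcaGACaGACatGACggatctc
Plxna2, replicate 1, coding sequence, chr1:194801092-194801123 (plus strand): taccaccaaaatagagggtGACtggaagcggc
Sema3a, replicate 1, coding sequence, chr5:13565765-13565794 (plus strand): atttggcggatttGACtccacaaagGACct
Sema3c, replicate 2, coding sequence, chr5:17675105-17675137 (plus strand): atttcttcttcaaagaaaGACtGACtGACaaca
Sema6d, replicate 1, coding sequence, chr2:124654166-124654195 (plus strand): ttttagagGACgcccttcaggcaacgaatc
Sema5a, replicate 2, coding sequence, chr15:32669505-32669536 (plus strand): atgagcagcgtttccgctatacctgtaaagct
The first Plxnd1 pair is 1 site seen in both replicates, with a fold of 4.51 in replicate 2 and 1.85 in replicate 1. The Sema5a peak holds no GAC. Not shown are the exonic peaks of the highest fold of Nrp1 (coding sequence), with 0 GAC, and Sema3e (3′ UTR), with 2. An overlapping intronic pair of Nrp1, not shown either, holds 1 GAC in its replicate 2 peak and 0 in its replicate 1 peak.

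Most of these peaks rest on a pileup of 1. The fold of a peak is the authors' ratio of the pileup at its summit over the local background, and a whole-number pileup height reproduces both the fold and the −log10 p of 99.998% of replicate 1 peaks and 99.997% of replicate 2 peaks (to a relative tolerance of 0.0002). In ligand genes 268 of 307 peaks in replicate 1 and 310 of 351 in replicate 2 had a height of 1, and in receptor genes 274 of 370 and 163 of 276. Peaks of height 2 or more made up 12.7% and 11.7% of ligand peaks in replicates 1 and 2 and 25.9% and 40.9% of receptor peaks, beside 23.4% and 30.7% of peaks in all protein-coding genes. A −log10 p of 4 or more was reached by 12.4% and 9.69% of ligand peaks and 18.6% and 19.2% of receptor peaks in replicates 1 and 2, beside 17.3% and 15.7%. Peaks wider than the least width of 30 bp were 9.45% and 7.41% in ligand genes and 15.4% and 18.5% in receptor genes, beside 16.1% and 16.7%. The greatest height was 3 in replicate 1 and 5 in replicate 2 among ligand genes, and 8 and 6 among receptor genes.

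**Figure D1:**
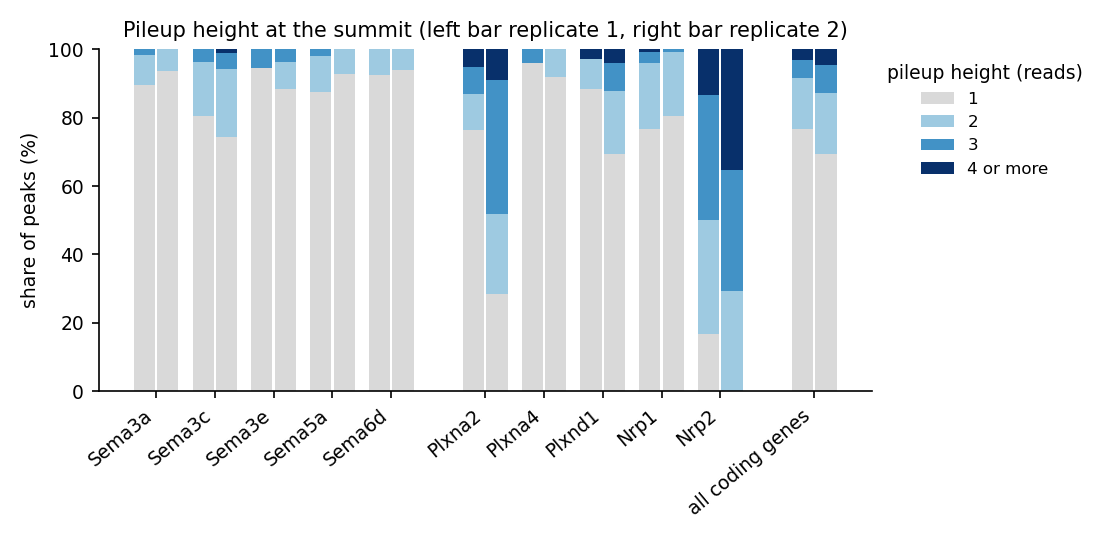
Share of peaks (%, vertical axis) by recovered pileup height, for each gene and for all protein-coding genes, with replicate 1 as the left bar and replicate 2 as the right bar. Height 1 fills most of each bar except in Nrp2, in both replicates, and Plxna2 in replicate 2, where 16 of 56 peaks had height 1.

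Ligand genes held fewer peaks per kb than receptor genes in both replicates. Over all 5 genes of each role the density was 0.162 peaks per kb in replicate 1 and 0.185 in replicate 2 for ligands, against 0.392 and 0.293 for receptors, a mean of 0.174 ± 0.0164 against 0.343 ± 0.0705 (SD, n = 2 libraries). The ratio of ligands over receptors was 0.413 and 0.633. The gene at the median had 0.119 and 0.114 peaks per kb among ligands and 0.770 and 0.295 among receptors. The single genes of the 2 roles overlapped, however: Plxna4 was the sparsest of the 10, and Sema3c stood above Nrp2 in both replicates. The ligand genes are also longer, at 1894 kb in all against 943 kb, and no test was made over 5 genes a side. Their 1894 kb include 271 kb of Sema3a with no listed peak.

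**Figure D2:**
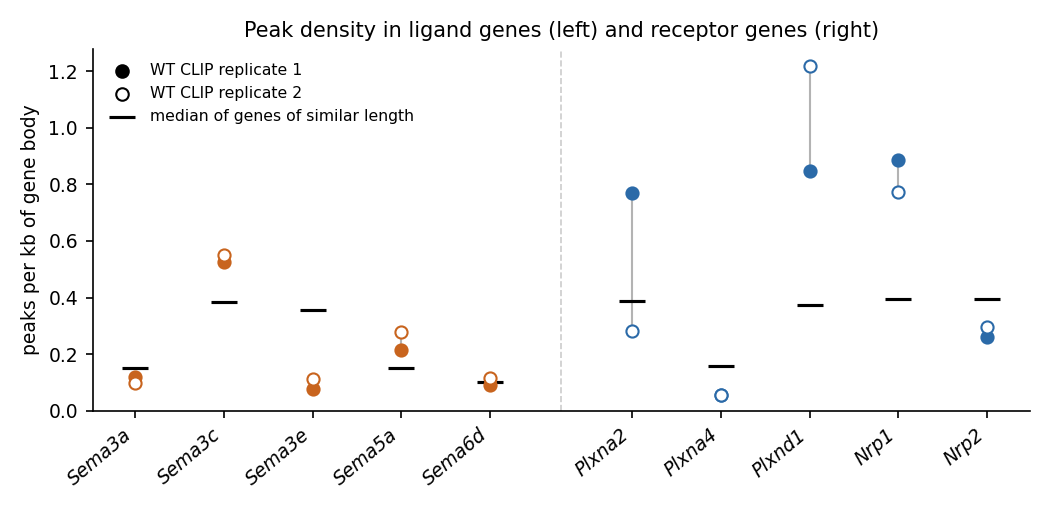
Peaks per kb of gene body (vertical axis) for ligand genes (left) and receptor genes (right), with filled points for replicate 1, open points for replicate 2 and a black bar at the median of protein-coding genes of similar length. Sema3c, Sema5a, Plxnd1 and Nrp1 lie above their bar in both replicates, whereas Sema3a, Sema3e, Plxna4 and Nrp2 lie below it; the points of Sema3a are over its whole body, of which 271 kb hold no listed peak.

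Of the secreted ligands, Sema3c had the densest peaks. Sema3c (chromosome 5, 17574281 to 17730268, plus strand), whose product guides neural crest cells of the cardiac outflow tract, held 82 peaks in replicate 1 and 86 in replicate 2, or 0.526 and 0.551 per kb. Sema3a (chromosome 5, 13125414 to 13602565), the classical axon repellent, held 57 and 47, or 0.119 and 0.0985 per kb of the whole body. Of its 477 kb the first 271 kb hold no listed peak and lie in a longer gap from which called peaks are missing (described below). Over the remaining 206 kb its density was 0.277 and 0.228 per kb. Sema3e (chromosome 5, 14025276 to 14256689), the ligand of plexin D1, held 18 and 26, the lowest number of the ligands in each replicate, or 0.0778 and 0.112 per kb. Sema3c stood above Sema3a and Sema3e in both replicates, also by the listed stretch of Sema3a, and by that stretch Sema3a stood above Sema3e in both.

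Both membrane-bound ligands are very long genes. Sema5a (chromosome 15, 32244810 to 32696341), which carries thrombospondin repeats, held 97 and 126 peaks over 452 kb, or 0.215 and 0.279 per kb. Sema6d (chromosome 2, 124089969 to 124667770) held 53 and 66 over 578 kb, or 0.0917 and 0.114 per kb. Sema6d stood above Sema3e in both replicates, by less than either gene differed between replicates, and below the listed stretch of Sema3a in both.

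Among receptors, Plxnd1 and Nrp1 were dense in both replicates. Plxnd1 (chromosome 6, 115954811 to 115995005, minus strand), the plexin of vascular patterning, held 34 and 49 peaks in 40.2 kb, or 0.846 and 1.22 per kb. Nrp1 (chromosome 8, 128358604 to 128503363) held 128 and 112 peaks, or 0.884 and 0.774 per kb, so that Plxnd1 and Nrp1 changed order between replicates. Nrp2 (chromosome 1, 62703285 to 62818695) held 30 and 34 peaks, or 0.260 and 0.295 per kb. Plxna4 (chromosome 6, 32144268 to 32588192, minus strand), an A-type plexin of sensory and hippocampal axons, held 25 in each, or 0.0563 per kb. Plxna2 (chromosome 1, 194618218 to 194816869), known for mossy fibre targeting, differed most between replicates, with 153 and 56 peaks, or 0.770 and 0.282 per kb.

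Read against genes of similar length (0.67 to 1.5 times that of the gene), 8 of the 10 lay between percentiles 31.7 and 62.9. By the mean of the replicates, Plxnd1 stood at percentile 96.2 of 3933 such protein-coding genes and Nrp1 at 89.1 of 1658. Sema3c and Plxna2 stood at 62.9 and 61.7, Sema5a at 56.3, Sema6d at 50.2, Sema3a at 46.9 over its whole body, Nrp2 at 41.5, Sema3e at 31.8 and Plxna4 at 31.7. Taken over its listed 206 kb alone, and set against 1085 genes of about that length, Sema3a stood at 42.1. Among all 16850 protein-coding genes with a peak, whose median was 0.394 per kb and median length 25.1 kb, the same genes ran from percentile 13.4 for Plxna4 to 93.3 for Plxnd1.

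**Figure D3:**
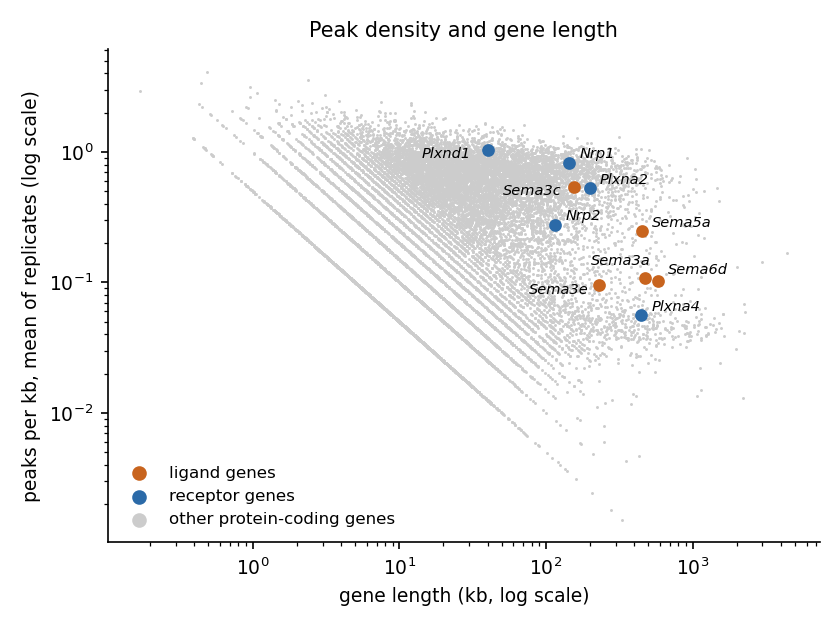
Peaks per kb (mean of the replicates, log scale) against gene length (kb, log scale) for ligand genes, receptor genes and other protein-coding genes (grey). Plxnd1, the shortest of the 10, is the densest, and Sema6d, the longest, is among the sparse ones, yet Plxna4 and Sema5a, of nearly equal length, differ.

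The local background that the peak caller used differed from gene to gene, and it fixed which heights could be listed. At the p threshold of 0.005 carried in the peak names, a height of 1 passes only where the background is at most 0.103 reads and a height of 2 where it is at most 0.338. In ligand genes 71.7% of replicate 1 peaks and 79.5% of replicate 2 peaks lay at the lowest background of their list (0.0246 and 0.0404 reads), against 8.11% and 10.1% in receptor genes. The median background was 0.0246 and 0.0404 for ligands and 0.0693 and 0.0841 for receptors. Sema3c was the ligand gene above the floor, at 0.0416 and 0.0545, and Plxna4 the receptor gene at it.

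Nrp2 had the highest background of the 10 genes. Its median was 0.177 reads in replicate 1 and 0.279 in replicate 2, and 25 of its 30 and all 34 of its peaks lay above the limit for a height of 1. Accordingly 5 of its peaks in replicate 1 and 0 in replicate 2 had a height of 1, and its median folds, 2.70 and 3.19, were the highest of the 10 genes. The median fold of ligand peaks was 1.95 and 1.92 and that of receptor peaks 1.91 and 1.92, beside 1.93 and 1.92 in all protein-coding genes, so that the roles did not separate by it. These medians are near the fold of a single read at the lowest background, which is 1.95 in replicate 1 and 1.92 in replicate 2.

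**Figure D4:**
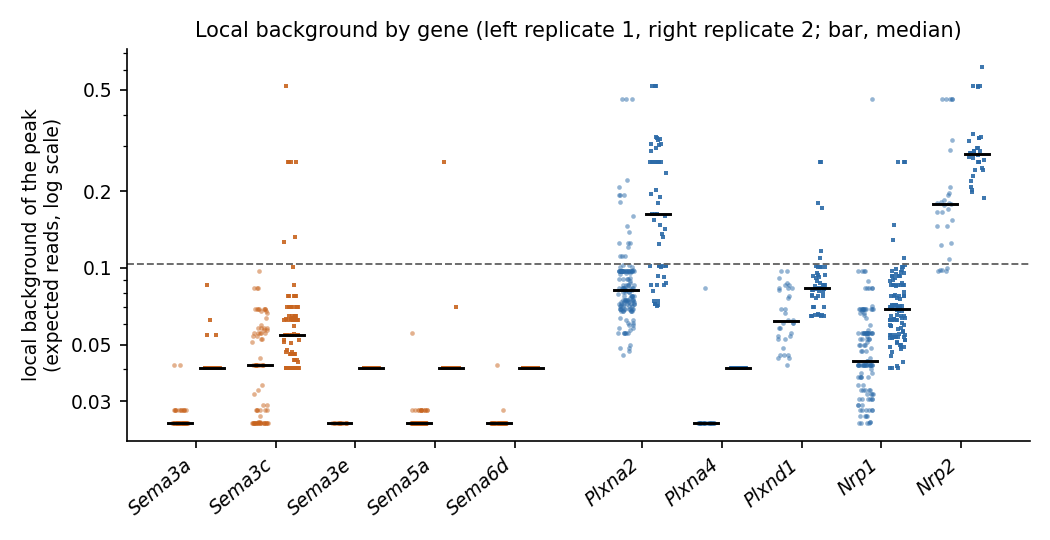
Local background of each peak (expected reads, log scale) by gene, replicate 1 left and replicate 2 right, with black bars at the medians and a dashed line at 0.103, above which a height of 1 is not called at p 0.005. Nrp2 in replicate 2 lies wholly above the line, and most Plxna2 peaks of replicate 2 do as well, whereas the peaks of Sema3e, Sema6d and Plxna4 lie at the floor with few exceptions.

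The fewer Plxna2 peaks of replicate 2 were mostly a matter of peaks of height 1. Plxna2 had 117 peaks of height 1 in replicate 1 and 16 in replicate 2, but 36 and 40 of height 2 or more. Its median background was 0.0818 in replicate 1 and 0.163 in replicate 2, and 12.4% and 64.3% of its peaks lay above the limit for a height of 1. The ratio of replicate 1 over replicate 2 peaks, 2.73, stood at percentile 93.8 of the 1824 protein-coding genes with 100 or more peaks, among which the median ratio was 1.02. Without Plxna2, the ratio of ligands over receptors in peaks per kb was 0.556 and 0.627 in replicates 1 and 2.

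Counting peaks of height 2 or more set Sema3c apart from the other ligands. Their density was 0.103 per kb in replicate 1 and 0.141 in replicate 2 in Sema3c. It was between 0.00432 and 0.0266 in the other 4 ligand genes over both replicates, with Sema3a taken over its whole body. In receptors it was 0.207 and 0.152 in Nrp1, 0.217 and 0.295 in Nrp2, 0.181 and 0.201 in Plxna2, 0.0995 and 0.373 in Plxnd1, and 0.00225 and 0.00451 in Plxna4. The roles overlapped by this count too: Plxna4 lay below every ligand gene in both replicates, and Sema3c lay above Plxnd1 in replicate 1. Nrp2, whose density by all peaks was below the 0.394 per kb of the median coding gene, ranked at the top of the 10 in replicate 1 and behind Plxnd1 alone in replicate 2.

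Introns held most peaks of both roles, as they hold most bases. Ligand peaks had their midpoint in an intron in 296 of 307 cases in replicate 1 (96.4%, 95% Wilson interval 93.7 to 98.0) and 336 of 351 in replicate 2 (95.7%, 93.1 to 97.4), and introns made up 98.1% of the ligand gene bodies. For receptors the counts were 344 of 370 (93.0%, 89.9 to 95.2) and 262 of 276 (94.9%, 91.7 to 97.0), with 95.2% of bases. The ligand bodies include the first 271 kb of Sema3a, which held no listed peak. Over all protein-coding genes 90.8% of replicate 1 and 91.6% of replicate 2 placements were intronic. Intervals here and below cover counting error only, and peaks of a gene are not independent.

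Exonic peaks were few and their distribution between roles changed with the replicate. Coding sequence held 4 ligand peaks in replicate 1 and 9 in replicate 2, and 20 and 10 receptor peaks, of which Plxna2 held 11 and 1. The 3′ UTRs held 5 and 5 ligand peaks and 6 and 3 receptor peaks. Per kb of exon, ligands had 0.301 and 0.410 peaks and receptors 0.580 and 0.312. The order of the roles in exons was thus reversed between replicates, whereas in introns ligands were lower in both, at 0.159 and 0.181 per kb against 0.383 and 0.292. The intronic bases of ligands include those of the first 271 kb of Sema3a, which held no listed peak.

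The longest intron of the gene held the most peaks in 9 of the 10 genes in replicate 1, all but Plxna2, and in 10 of 10 in replicate 2. In ligands the first intron held 46 of 296 intronic peaks in replicate 1 and 60 of 336 in replicate 2 (15.5% and 17.9%), near its 17.5% of intronic bases on the transcript of the longest span. In receptors it held 54 of 344 and 35 of 262 (15.7% and 13.4%), with 13.8% of bases. Sema5a was above its share, with 35.5% and 37.7% of intronic peaks in a first intron of 102 kb that makes up 23.1% of intronic bases. In Nrp1, intron 2 (55.3 kb, 39.4% of bases) held 59 and 52 peaks, or 47.6% and 48.1%. Intron 1 of Sema3e (118 kb, 52.5% of bases) held 58.8% and 59.1% of 17 and 22 intronic peaks.

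Plxna4, Plxnd1 and Nrp2 also held more than the base share in their longest intron in both replicates. Plxna4 intron 3 (186 kb, 43.2% of bases) held 15 of its 25 intronic peaks in replicate 1 and 11 of 24 in replicate 2 (45.8%). Plxnd1 intron 1 (12.7 kb, 38.3% of bases) held 12 and 20, or 41.4% and 45.5%. Nrp2 intron 15 (29.0 kb, 26.7% of bases), the last, held 10 and 13, or 34.5% and 38.2%. Sema3c and Plxna2 changed between replicates. Sema3c intron 2 (76.7 kb, 51.0% of bases) held 46 peaks in replicate 1 and 29 in replicate 2, or 56.8% and 35.4%. Plxna2 intron 1 (23.3 kb) held 34 and 3 peaks, while intron 3 (62.5 kb) held 21 and 24.

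Sema3a had no listed peak over the first part of its gene body. The annotated body begins 271 kb before the start of its coding transcripts; these 271 kb held 0 peaks in either replicate, and the remaining 206 kb held 57 and 47, or 0.277 and 0.228 per kb. The lists skip numbers there: the numbers in the peak names run in order of position, and between the listed peaks that flank the empty stretch (837 kb apart in replicate 1, 813 kb in replicate 2) 28 numbers are absent from replicate 1 and 36 from replicate 2. The empty stretch thus cannot be read as a measured 0, since called peaks within that gap were left out of the deposited lists. Where in the gap they lay, and whether any lay in the 271 kb, cannot be told. From the first to the last listed peak of each of the 10 genes, 0 numbers were absent. Absent numbers beside a gene are not particular to Sema3a. Between the listed peaks that flank each of the 10 bodies, 6 (Plxnd1) to 80 (Sema6d) were absent in replicate 1. In replicate 2 it was 10 (Plxnd1) to 79 (Plxna2).

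Sema6d peaks were denser over the last 57.5 kb of its body than before it, although most lay before it. Its first 520 kb, before the start of the shorter coding transcripts, held 40 and 39 peaks in replicates 1 and 2, or 0.0769 and 0.0750 per kb. The last 57.5 kb held 13 and 27, or 0.226 and 0.470 per kb. Cutting the gene body into 5 equal parts, the last held 32.1% and 43.9% of its peaks. Intron 5, which makes up 28.6% of intronic bases and reaches into this stretch, held 18 and 31 peaks.

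**Figure D5:**
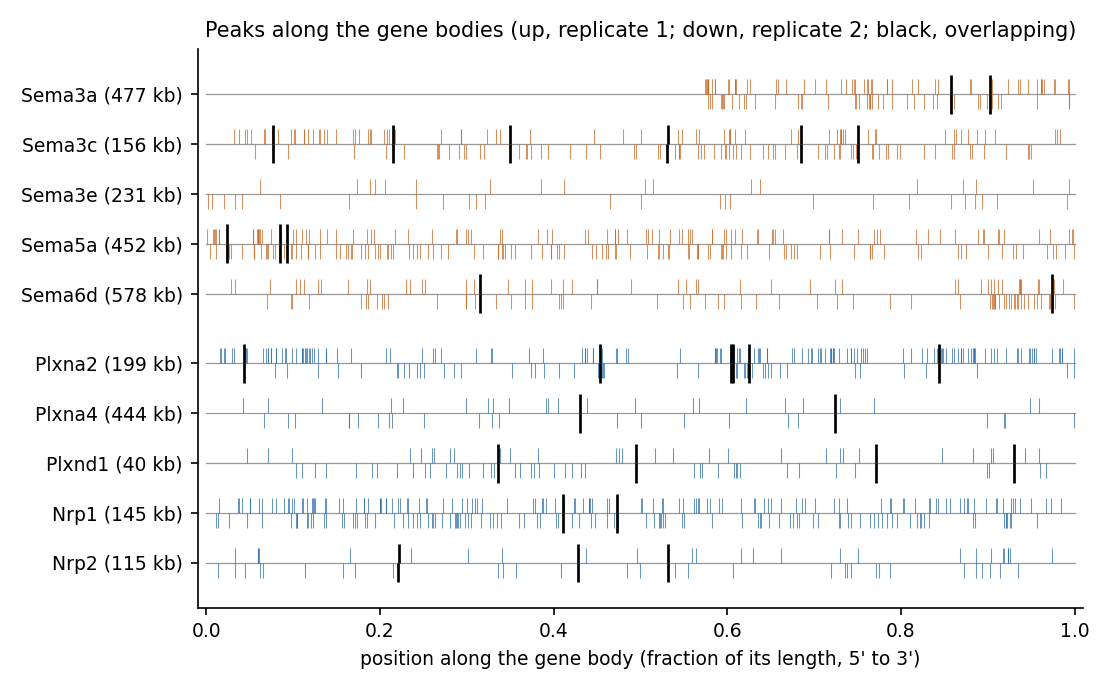
Position of each peak along its gene body (fraction of the length, 5′ to 3′), with replicate 1 ticks pointing up, replicate 2 ticks pointing down and black ticks for peaks that overlap between replicates. Sema3a is empty over its first part, and Sema6d ticks are denser in its last part in both replicates, although most lie before it.

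Some 10 kb stretches were dense in both replicates and others in 1 of them. Sema6d held 5 peaks in its densest 10 kb of replicate 1, in intron 5, where replicate 2 held 7, and nearly the same stretch, with 8 and 4 in replicates 2 and 1, was the densest of replicate 2. In Sema3a the densest 10 kb of replicate 1 held 9 peaks against 6 in replicate 2, and that of replicate 2 held 8 against 6 in replicate 1. Sema5a held 9 against 6 in its densest 10 kb of replicate 1, in intron 1, but 8 against 3 in that of replicate 2. Nrp2 held 8 against 6 in that of replicate 1, in intron 15, but 7 against 2 in that of replicate 2. Nrp1 held 16 against 9 and 17 against 8. Spread evenly over the body, 10 kb would hold 2.15 peaks of replicate 1 and 2.79 of replicate 2 in Sema5a. The values are 2.60 and 2.95 in Nrp2, and 8.84 and 7.74 in Nrp1. In Plxna2 the 10 kb that hold the most replicate 2 peaks, from 120.0 kb of the gene start and including the end of intron 4, held 15 peaks in replicate 2 and 13 in replicate 1, with 3 of the 6 overlapping peaks of the gene. The densest 10 kb of Plxna2 in replicate 1, from 166.6 kb, held 20 peaks in replicate 1 but 2 in replicate 2. In Plxnd1 the 10 kb from 7.68 kb held 25 peaks in replicate 2 and 10 in replicate 1, and those from 9.44 kb held 13 in replicate 1 and 22 in replicate 2. Sema3c held 15 against 2 in its densest 10 kb of replicate 1, in intron 2, and 13 against 9 in that of replicate 2, in intron 11. For Sema3e and Plxna4 the densest stretch of each replicate held 0 peaks of the other.

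Overlap between replicates was rare in both roles. Of replicate 2 peaks in ligand genes 13 of 351 (3.70%, 95% Wilson interval 2.18 to 6.23) overlapped a replicate 1 peak by at least 1 bp, and in receptor genes 17 of 276 (6.16%, 3.88 to 9.64). For the 10 genes together it was 30 of 627 (4.78%, 3.37 to 6.75), below the 7.91% of replicate 2 peaks in all protein-coding genes. That value is not matched for gene length. By number of overlapping peaks, Sema3e stood at percentile 0 of genes of similar length, and the others from 42.2 (Sema3a) to 88.9 (Plxnd1). The percentile counts genes with fewer overlapping peaks, so that any gene with 0 stands at 0. Of the 954 genes matched to Sema3e 74.0% held an overlapping peak, and the rest were tied with it. In replicate 1 the shares were 4.23% of ligand peaks and 4.59% of receptor peaks, beside 6.95%. The intervals of the roles overlap, and no difference between ligands and receptors in sharing was detectable at this number of peaks; at a −log10 p of 4 or more the order turned, with 3 of 34 ligand peaks (8.82%) and 4 of 53 receptor peaks (7.55%).

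Peaks of greater height overlapped more often in all protein-coding genes. In the 10 genes the shares had the same order, but the intervals of the 2 height classes overlap in each replicate. Of replicate 2 peaks with a height of 1, 17 of 473 overlapped (3.59%, 2.26 to 5.68), beside 5.70% in all protein-coding genes. With a height of 2 or more it was 13 of 154 (8.44%, 5.00 to 13.9), beside 12.9%. In replicate 1 the shares were 20 of 542 (3.69%) at a height of 1, beside 5.74%, and 10 of 135 (7.41%) at a height of 2 or more, beside 10.9%. Within each class and replicate the 10 genes lay below the value of all coding genes, which at a height of 2 or more falls inside their interval.

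The 30 overlapping pairs fell on 9 of the 10 genes. Sema3c and Plxna2 held 6 each, Plxnd1 4, Sema5a and Nrp2 3 each, Sema3a, Sema6d, Plxna4 and Nrp1 2 each, and Sema3e 0. Having such a peak was common: 62.9% of protein-coding genes in the length range of the 10 had one, and 38.0% of all genes with a peak. For Sema3e, the 26 peaks of replicate 2 with 0 overlaps allow a share of up to 11.5% by 3 counts of the total, and of up to 12.9% by the upper Wilson limit. The pairs overlapped by 2 to 38 bp, with a median of 20.5. One pair, in Sema3c intron 11 (chromosome 5, 17691275 to 17691304), had the same interval in both replicates.

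Of these pairs 28 were intronic and 2 lay in coding sequence, both in Plxnd1. Of the 28 intronic pairs 0 lay within 100 nt of a splice site, and this distance was not measured for the 2 coding pairs. Few intronic peaks of these genes lay that close at all. The most in a gene was 4 of 137 in replicate 1 (Plxna2) and 7 of 44 in replicate 2 (Plxnd1). The 0 is therefore not read as avoidance of splice sites. Heights were 1 in both replicates for 12 pairs, 2 or more in one replicate for 13 and 2 or more in both for 5. Receptors held 4 of those 5, namely 3 in Nrp2 and 1 in Plxna2 intron 1 (chromosome 1, 194626903 to 194626936 in replicate 1, folds 2.73 and 3.97 in replicates 1 and 2). The ligand pair was in Sema3c intron 10, with folds of 2.93 (17681144 to 17681176, replicate 1) and 3.84 (17681165 to 17681199, replicate 2). It had the highest lower fold of the 30.

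All 3 pairs of Nrp2 were in the deposited shared list. They lay in intron 2 (chromosome 1, 62728805 to 62728873 in replicate 1, folds 2.74 and 2.33), intron 7 (62752700 to 62752729, folds 3.35 and 2.32) and intron 9 (62764586 to 62764615, folds 2.74 and 3.29). In Plxnd1 the coding pairs had folds of 1.85 and 4.51 (the first pair of sequences above) and 1.82 and 3.18 in replicates 1 and 2. Neither pair of Nrp1 reached the 50% overlap of the deposited list, although Nrp1 had the most replicate 2 peaks of the receptors. Sema5a had its 3 pairs in intron 1, within 42.2 kb of the gene start, the strongest with folds of 3.89 and 1.92 (chromosome 15, 32255751 to 32255781). In Sema3a both pairs lay in intron 7, and the 4 peaks had a height of 1.

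The highest folds of these genes were far below the maxima of peaks in all protein-coding genes, 94.8 in replicate 1 and 80.7 in replicate 2, but none of the 10 lay below the highest fold of the median protein-coding gene, 2.93 and 2.88. The strongest was a Plxna2 coding peak of replicate 1 (chromosome 1, 194801092 to 194801123, shown above), with a fold of 6.22, a −log10 p of 10.1 and a height of 6; the nearest replicate 2 peak was 6531 bp away. Nrp2 intron 7 held a peak with a fold of 5.08 in replicate 1 (62760473 to 62760527), and Plxna2 intron 3 one of 5.05 in replicate 2 (194692446 to 194692487). The top ligand peak, in Sema3c intron 2 (chromosome 5, 17586254 to 17586301), had a fold of 4.76 and a height of 5 in replicate 2, and it overlapped a replicate 1 peak with a fold of 1.87. In the other ligand genes the highest fold was between 2.88 and 3.90 in each replicate.

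Against genes of similar length, these maxima lay between percentiles 14.6 and 82.7. Among such coding genes the highest fold of Plxna2 stood at percentile 82.2 in replicate 1 and 79.8 in replicate 2, that of Plxnd1 at 80.8 and 82.7, and that of Nrp2 at 78.3 and 75.9. Sema6d stood at 14.6 and 19.7 and Sema3a at 40.9 and 18.9. Ligand genes other than Sema3c did not exceed the median of their length class in either replicate, and Plxna2, Plxnd1 and Nrp2 exceeded it in both.

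Exonic sequence was readable with 10 nt on each side for 25 peaks in replicate 1 and 21 in replicate 2. The m6A consensus DRACH (D stands for A, G or T, R for A or G, and H for A, C or T) was in 19 of 25 (76.0%) and 16 of 21 (76.2%), beside 65.9% and 66.0% of exonic peaks in all protein-coding genes. GAC was in 18 (72.0%) and 12 (57.1%), beside 49.2% and 50%. TTTTT was in 3 of 25 and 1 of 21, beside 13.7% and 12.4%. Over both replicates DRACH was in 35 of 46 windows (76.1%, 95% Wilson interval 62.1 to 86.1) and GAC in 30 of 46 (65.2%, 50.8 to 77.3), and the values of all coding genes lie inside the first interval and just below the second. Motifs were sought on the gene's strand, and DRACH and GAC can overlap. In coding sequence GAC was in 13 of 13 windows in replicate 1 but in 6 of 11 in replicate 2, beside 56.5% and 56.7%, so that the high share was not seen in both replicates.

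The wider pathway, from lists of 57 further genes, held overlapping peaks in 30 (52.6%), beside 42.9% of protein-coding genes with a peak. That value is not matched for gene length, whose median was 32.6 kb in the 57 genes and 25.1 kb in those coding genes. The 30 genes were 5 of 15 other semaphorins, among them Sema6a with 6, 4 of 6 other plexins, 4 of 10 co-receptors and further neuropilin ligands, and 17 of 26 genes of intracellular semaphorin signalling. Flt1, a VEGF receptor, Fyn, a Src family kinase, and Mical3, of the family of oxidases that take actin filaments apart, had 18 each. Farp1, a FERM-domain exchange factor, had 14 and Gipc1, an adaptor that binds the neuropilin tail, 13, with folds of up to 52.7 in replicate 1 and 23.8 in replicate 2. Among the 10 genes the most was 6, in Sema3c and Plxna2.

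Peaks are not expression, and marker genes gave a weak check of the cell type. Of 9 neuronal markers 8 held a peak and 3 an overlapping one (Map2, Stmn2 and Syt1); Nefl held 0. Of astrocyte and oligodendrocyte markers 4 of 5 each held a peak, with 1 overlapping in each list, and of microglial and endothelial markers 5 of 5 each, with 1 and 0. Markers of other cell types thus held peaks too. Overlapping peaks were in 3 of 9 neuronal markers (37.5% of those with a peak) and in at most 1 of 5 in each other list. These shares lie below the 42.9% of all protein-coding genes with a peak. The astrocyte marker Slc1a3 held 6 overlapping peaks and the neuronal marker Map2 5, so that these counts did not single out neurons. The part of other cell types in the results was not tested.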

How the data were processed

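Peaks of RBM45 iCLIP were deposited per library for WT CLIP replicates 1 and 2, with a list of pairs shared by both. Each peak has the authors' score (10 times the −log10 p, rounded down), a fold (a ratio over local background) and the −log10 p itself. The deposited shared list adds another value, the bases of overlap of each pair, and it equals the 16399 pairs recomputed here with an overlap of at least 50% of the replicate 2 peak. The submitters' processing notes name deepTools 3.2.1, HOMER 4.11.1, bedtools 2.25.0, MACS2 2.1.1.20160309, Novoalign 3.09.00 and the mm10 build, with no role or order. The peak names carry a MACS2 p threshold of 0.005. Of 654978 and 581790 deposited lines, 387749 and 344700 were distinct intervals. Number of reads per library is unknown. A deposited count table has 8 library columns, and its summary 8, that match no label; they were not used.

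Peaks were placed by midpoint in the gene bodies of the comprehensive GENCODE M21 annotation. Its basic set gave the region of each peak and the transcripts used for introns. Peak names number both strands in a single order of position, in 100% of neighbours. Every listed interval in a body of the 10 genes carries that gene's strand (5 of replicate 2 carry the other as well), so sense and antisense RNA cannot be told apart there. In each peak, height and background were solved from fold = (height + 1)/(background + 1) and the Poisson tail for the −log10 p, and the step was tested on simulated data. Sequences came from GENCODE M21 transcripts, 141767 of which equalled the sum of their exons in length, with 0 exceptions. Shares carry Wilson 95% intervals. Values were computed with pandas 2.3.3, numpy 2.4.6 and scipy 1.17.1 in Python 3.11.15, and plotted with matplotlib 3.10.9.

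The 10 genes and all lists were chosen with earlier results of these data known. All 10 are named with every overlapping pair counted, as are, from the other lists, the 5 genes with the most overlapping peaks. Sema6a, the markers named and the windows were chosen after their values were seen. Alternatives changed the unit of a peak, its assignment, the threshold, the overlap, the transcript, the width and the replicate.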

Additional observations from a re-analysis of the deposited data

How the results depend on the processing

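Of 49 recomputed values, leaving a replicate out aside, 28 stayed within the spread of the reported value and 21 moved. The order of the roles turned in 3 cases: in sharing and in median fold at a −log10 p of 4 or more, and in first intron share without replicate 2 (15.5% for ligands, 15.7% for receptors); without replicate 1 the median folds were equal. With repeated lines kept, peaks per kb were 0.263 for ligands and 0.496 for receptors. With a −log10 p of 4 or more they were 0.0190 and 0.0647, as fewer peaks remain, and the ratio was 0.297. With a height of 2 or more, an alternative chosen after seeing the data, they were 0.0211 and 0.111, and the ratio was 0.191; the cause of these ratios was not tested. Per kb of the longest coding transcript, also added, which leaves out 273 kb of Sema3a with no listed peak, ligands had 0.203 and receptors 0.343, and the ratio was 0.610. Without a replicate, the density was 0.162 to 0.185 in ligands and 0.293 to 0.392 in receptors, and the ratio was 0.413 to 0.633; leaving out 1 of 2 replicates returns the value of the other and is no check of stability. The first intron share of ligands was 30.7% on the transcript with the most exonic bases, which in Sema3a and Sema6d starts later, and that of receptors was 9.91% at a −log10 p of 4 or more, the cause of which was not tested. At that threshold the intron share of receptors was 91.0% and sharing 8.82% in ligands (3 of 34) and 7.55% in receptors (4 of 53), and at a height of 2 or more 7.32% and 8.85%. The median fold was 2.91 for ligands both at that threshold and for peaks wider than 30 bp, and 3.12 and 2.84 for receptors; both settings leave out most peaks of height 1. With the peak interval alone, which is a shorter window, DRACH was in 48.1%, GAC in 44.4% and TTTTT in 1.85% of exonic peaks, against 76.1%, 65.2% and 8.70%. In all protein-coding genes the interval alone held DRACH in 48.4% of exonic peaks in each replicate, so that DRACH was not above that share. GAC was in 35.4% and 35.7% there and TTTTT in 7.13% and 6.66%, in replicates 1 and 2. The wider pathway count was 28 by the deposited shared list. No paired analysis was possible because the results come from no test between groups.

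The number of reads is unknown, most peaks have a height of 1, and 2 libraries give no estimate of biological spread. RNA abundance was not measured in the lists and input was not analysed here, so that more binding and more RNA of a gene cannot be told apart.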

Other observations

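The number of deposited lines per distinct interval followed the gene. Sema3a intervals stood on 3 lines each in both replicates and Nrp2 intervals on 4 to 6. In Sema6d each of the 40 and 39 intervals of its first 520 kb stood on 1 line in replicates 1 and 2, and each of the 13 and 27 of the last 57.5 kb on 4 to 7. The intervals of the other 7 genes stood on 1 line each.

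Of the peaks in the 10 genes, 12 in replicate 1 and 7 in replicate 2 had their midpoint in a further gene on the same strand, most of them in Sema3a (4 and 6), Nrp2 (4 and 1) and Plxna2 (4 and 0), so that their assignment to these genes is uncertain.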
